A study of Mus musculus with 9 samples.

Results

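Semaphorins, plexins and neuropilins form a family of guidance cues and their receptors, and 33 of the 17442 genes in the deposited liver table belong to it by symbol. The rule took each symbol that starts with Sema3 to Sema7, Plxn or Plxdc, or that is Nrp1 or Nrp2, and set the semaphorin 5B gene Sema5b against the rest. It found 19 semaphorins, 9 plexins, 2 neuropilins, 2 plexin domain containing genes (Plxdc1 and Plxdc2) and 1 antisense gene, Plxna4os1. Sema5b was chosen by its difference between the genotypes in these same livers, and the family was taken because of it, so that difference is described below with no test. The other members were taken by name, whatever their values. RNA was sequenced from snap-frozen liver of 9 male C57BL/6 mice, 4 wild type (Msr1+/+) and 5 labelled Msr1-/-. Each animal gave 1 library, and all had eaten a high fat-cholesterol diet for 16 weeks, under which the labels give the disease state as non-alcoholic fatty liver disease. Msr1 encodes macrophage scavenger receptor 1, which binds and internalises modified lipoproteins on macrophages. The labels name neither the ages of the mice nor how the deletion was made, and no group on another diet was analysed here.

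Semaphorins are secreted or membrane-bound ligands that share a sema domain, and plexins are the receptors that carry their signal. Class 3 semaphorins are secreted and mostly need a neuropilin as co-receptor beside an A-type plexin, while class 4 to class 7 semaphorins sit in the membrane and bind plexins directly. Known first as cues that turn growing axons, they also steer endothelial, immune and epithelial cells, and neuropilins bind vascular endothelial growth factor (VEGF) as well. In the liver, neuropilins are known from sinusoidal endothelial and stellate cells, and B-type plexins from hepatocytes.

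Each value below is a normalised read count, the reads of a gene divided by the size factor of its library, and the libraries held between 15006773 and 18238932 reads. Means are given ± SD, with n = 4 for wild type and n = 5 for the livers labelled Msr1-/-. Wild type 3 stood apart, at 88.74 on the first principal component (41% of the variance) against -27.61 to 8.3 for the other 8 livers. In that liver the summed level of 13 macrophage markers was 19395, against 8734 to 11304 in the other wild-type livers and 5309 to 7160 in the livers labelled Msr1-/-. The sum of 12 stellate cell and fibroblast markers was 11919 there, against at most 5159 in the other wild-type livers. Msr1 itself had reads in all livers, from 152.7 to 209.1 in those labelled Msr1-/- and from 194.5 to 460.5 in wild type, so its gene total does not separate the genotypes (log2 difference -0.58, limma adjusted p = 0.264). Its total does not tell which exons those reads cover. Hepatocyte markers identified the tissue, the sum of 8 of them reaching 1360779 to 2128310 in wild type and 1796187 to 2484528 in the livers labelled Msr1-/-.

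The family spans more than 3 orders of magnitude of RNA level in this tissue, and it is led by a semaphorin and its B-type plexin receptor. Levels of different genes are compared per kilobase of merged exon. Sema4g, a membrane-bound class 4 semaphorin, was the most abundant member, at 763 ± 428 normalised reads per kilobase in wild type and 700.1 ± 228 in the livers labelled Msr1-/-. Plxnb2, a plexin that binds class 4 semaphorins, followed at 258 ± 28.0 and 273 ± 15.1. Sema4a, a class 4 semaphorin studied mainly in immune cells, stood at 127 ± 25.7 and 139 ± 16.3, and Nrp1 at 103 ± 43.2 and 65.4 ± 6.82. By the mean of all 9 livers, Plxnb1, Plxnd1, Sema5b and Plxnc1 came next, but Sema5b ranked 17 of 33 in wild type and 5 in the livers labelled Msr1-/-, above Plxnd1 and Plxnb1 there. At the bottom, Plxna3, Sema3c, Sema3g, Sema3a, Sema7a, Plxnb3, Sema5a and Sema4f each had a mean under 1 read per kilobase in both genotypes. Neighbours in the order of these means could rarely be told apart, since the ranges over the 9 livers overlapped in 31 of 32 neighbouring pairs. Plxnb2 and Sema4a were the pair whose ranges did not overlap. Semaphorin RNA was mostly Sema4g, which per kilobase made up 72.7% ± 14.6 of the summed semaphorin level in wild type and 71.0% ± 6.63 in the livers labelled Msr1-/-. In wild type 3 its share was 51.3%.

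**Figure D1:**
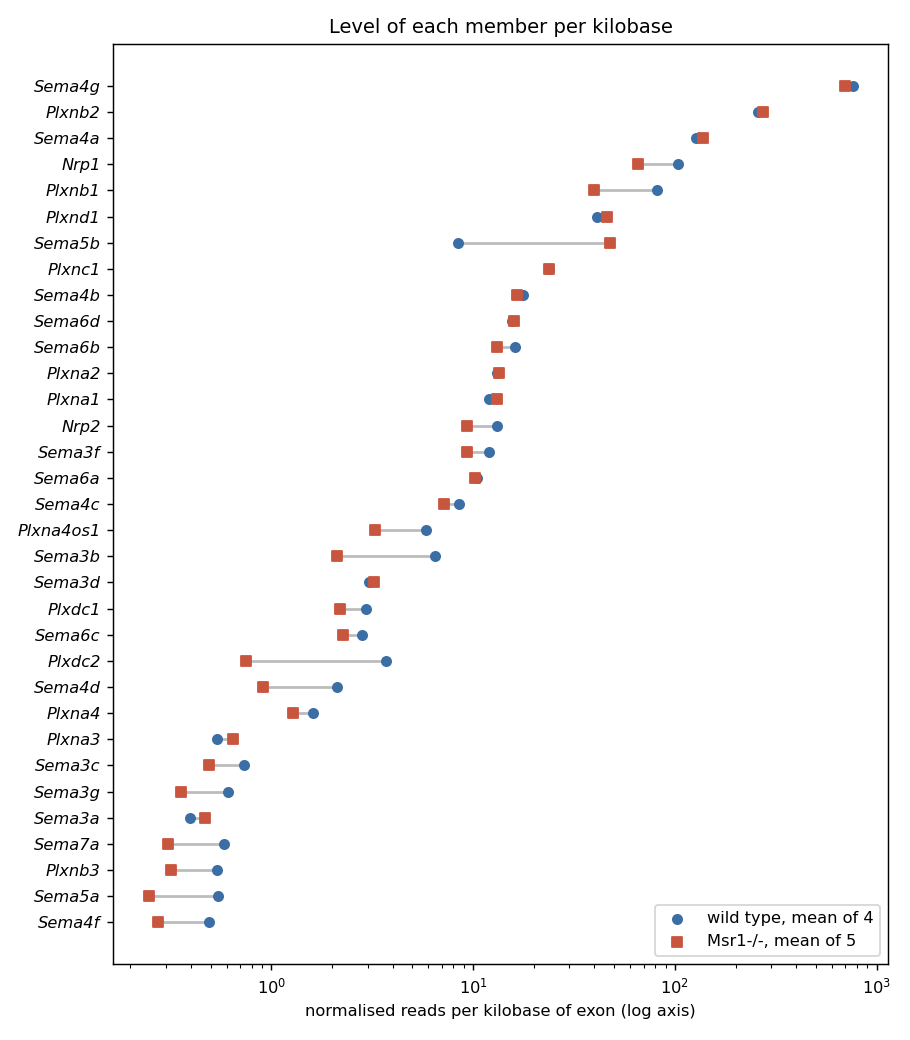
Mean level of each of the 33 members, as normalised reads per kilobase of merged exon on a log axis, in wild type (circles, mean of 4 livers) and in the livers labelled Msr1-/- (squares, mean of 5). Most pairs of symbols lie close together, while Sema5b moves from 8.41 to 47.7. The low gene Plxdc2 moves the other way, from 3.71 to 0.748.

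Of the 33 members, 24 averaged at least 10 normalised reads across all livers and were tested, and 9 were below that. Besides Sema5b, 0 of the 23 other tested members passed an adjusted p of 0.05 in limma, where 1.37% of all 12937 tested genes did (0.665% higher, 0.703% lower). At an unadjusted limma p under 0.05 there were 4 of these 23 (Plxnb1, Plxdc2, Nrp2 and Nrp1), against 15.3% of all tested genes. In edgeR 0 of the 23 passed, where 1.43% of all genes did (0.572% higher, 0.858% lower). DESeq2 called 2 of them, Plxnb1 and Plxdc2, both lower, and 5.98% of all genes (2.37% higher, 3.6% lower). Without wild type 3, limma called 2 of the other members, Plxnb1 and Nrp1, both lower, and 4.91% of all genes (2.59% higher, 2.32% lower). With counts this small, nothing particular to the family is read from them. The median log2 difference (livers labelled Msr1-/- minus wild type) was -0.18 over the 23 other members and 0.02 over all tested genes, and 12 of the 23 lay within 0.2 of zero. Ranges of the genotypes were apart in 1 of the 23, Plxnb1, which was lower. That is 4.35%, against 7.29% of all tested genes (3.3% higher, 3.99% lower).

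**Figure D2:**
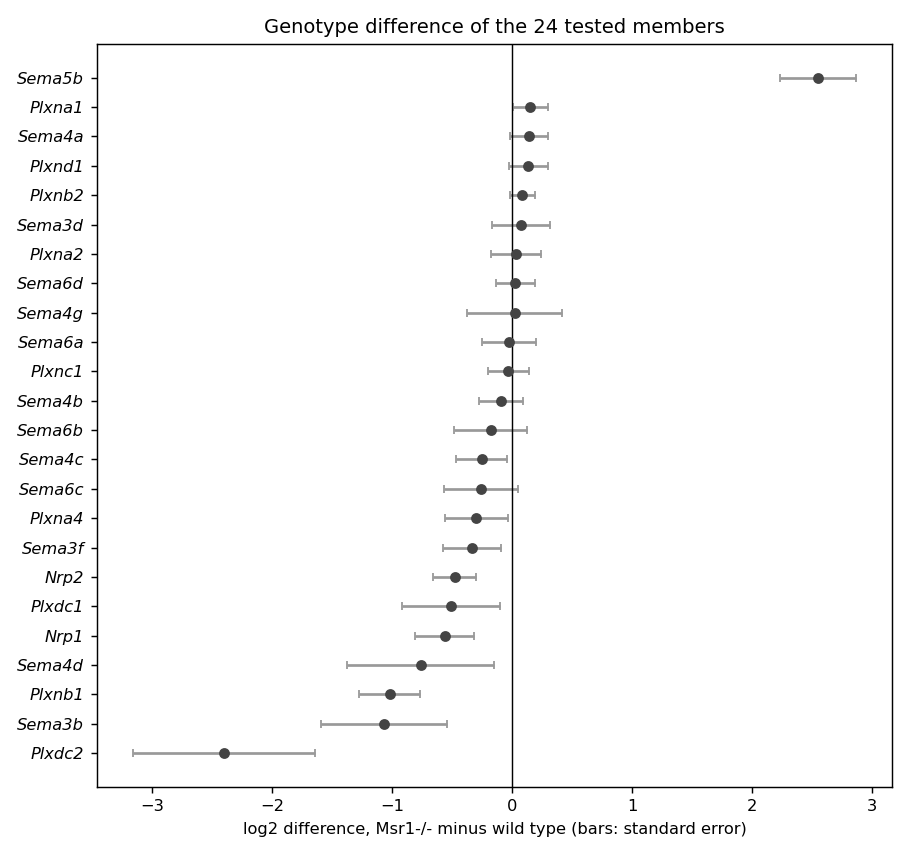
Log2 difference of the 24 tested members, livers labelled Msr1-/- minus wild type, with standard errors from limma. Sema5b lies at 2.55, the next highest member, Plxna1, at 0.15, and Plxdc2 at the other end at -2.40.

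Sema5b encodes a membrane-bound semaphorin with thrombospondin repeats, known from the developing nervous system. Its value was 43.8, 80.2, 30.6 and 83.5 in wild type 1 to 4, and 345, 449, 322, 373 and 199 in the livers labelled Msr1-/- 1 to 5. Each liver labelled Msr1-/- lay above each wild-type liver, the lowest being Msr1-/- 5. The means were 59.5 ± 26.4 and 338 ± 91.0, which is 5.87-fold on the log2(value + 1) scale, a log2 difference of 2.55 ± 0.32 (SE). Of all tested genes, 0.131% (17 of 12937) had a log2 difference at least as high, Sema5b included. Without wild type 3, which held the lowest Sema5b, the log2 difference was 2.28. Per kilobase, Sema5b went from 8.41 ± 3.72 to 47.7 ± 12.9. That placed it between 7 and 11 in the order of the 19 semaphorins in the wild-type livers. In all 5 livers labelled Msr1-/- it ranked 3, behind Sema4g and Sema4a.

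**Figure D3:**
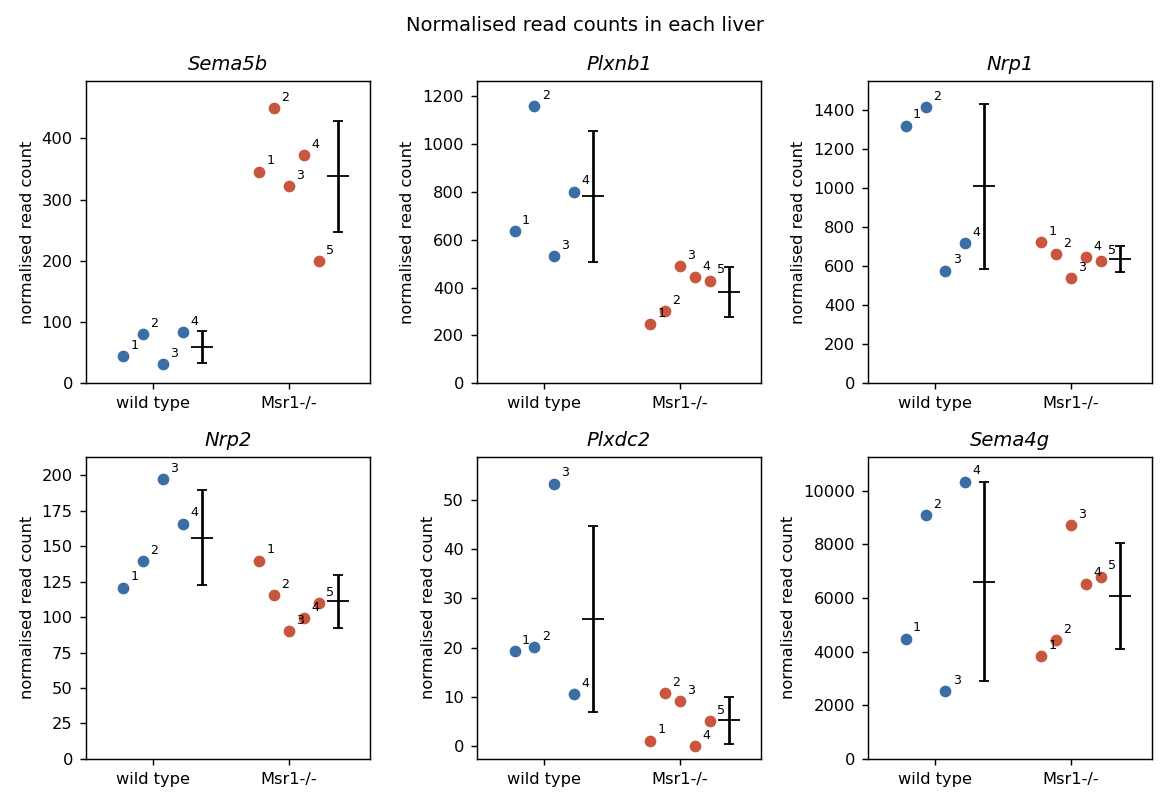
Normalised read counts of 6 members in each liver (points, numbered by animal), with the mean and SD of each genotype beside them. Sema5b separates the genotypes upward and Plxnb1 downward, while Nrp1, Nrp2, Plxdc2 and Sema4g overlap.

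Set against its family within each liver, Sema5b made up a nearly fixed share of the summed semaphorin counts in wild type, a sum that is mostly Sema4g (60.7 to 87.8% of the counts there). The share was 0.799, 0.76, 0.738 and 0.709% in wild type 1 to 4, although the Sema5b value itself ranged from 30.6 to 83.5 there. In the livers labelled Msr1-/- 1 to 5 it was 6.35, 7.37, 3.05, 4.62 and 2.37%. The shares do not overlap, and they spread more widely in the second group (0.751% ± 0.0382 against 4.75% ± 2.12). The shares do not take gene length into account. Without Sema4g the share was not fixed in wild type, at 4.37, 5.44, 1.88 and 5.81% in wild type 1 to 4, lowest in wild type 3. It averaged 4.37% ± 1.78 there and 20.6% ± 5.72 in the livers labelled Msr1-/-, so more than 12% of the remaining semaphorin signal came from Sema5b in each liver of the second group.

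The closest relative of Sema5b, the other class 5 semaphorin gene Sema5a, was near the limit of detection and did not follow it. It stood at 0, 1.06, 32.9 and 6.64 in wild type 1 to 4 and at 5.30, 0, 8.22, 3.51 and 6.01 in the livers labelled Msr1-/- 1 to 5. The highest value was in wild type 3, and the genotypes overlap. With a mean below 10 it was not tested.

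The promoters of this pair are shown because the paralogues differ so widely in level, and that of Plxnb1 because it is the other member whose genotypes do not overlap. Each sequence runs 5′ to 3′ on the plus strand of GRCm38.p6, from RefSeq. It ends at the base before the RefSeq start of Sema5b and Sema5a, and, for Plxnb1, before the earlier start that GENCODE gives. A non-coding Sema5b transcript in GENCODE starts inside the Sema5b window, at 35541145. The windows are chr16:35541112-35541361 for Sema5b, chr15:32244563-32244812 for Sema5a and chr9:109095186-109095388 for Plxnb1. Capitals mark the GC box GGGCGG on either strand.
Sema5b: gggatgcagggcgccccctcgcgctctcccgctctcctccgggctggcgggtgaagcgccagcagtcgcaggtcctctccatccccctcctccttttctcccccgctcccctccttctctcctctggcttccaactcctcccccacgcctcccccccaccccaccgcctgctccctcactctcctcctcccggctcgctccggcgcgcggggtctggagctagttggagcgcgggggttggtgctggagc
Sema5a: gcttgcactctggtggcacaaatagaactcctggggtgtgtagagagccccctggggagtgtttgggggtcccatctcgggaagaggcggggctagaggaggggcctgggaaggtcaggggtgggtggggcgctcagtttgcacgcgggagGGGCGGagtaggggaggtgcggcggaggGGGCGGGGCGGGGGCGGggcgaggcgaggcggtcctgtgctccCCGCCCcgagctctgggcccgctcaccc
Plxnb1: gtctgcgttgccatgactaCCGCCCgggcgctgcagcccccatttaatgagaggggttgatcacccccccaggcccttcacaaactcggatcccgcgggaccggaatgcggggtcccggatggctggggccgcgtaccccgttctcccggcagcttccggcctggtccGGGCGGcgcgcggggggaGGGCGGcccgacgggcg
All are rich in G and C, at 72% for Sema5b and Sema5a and 72.9% for Plxnb1, where the median of 32851 RefSeq promoter windows was 52.4% at 250 bases and 51.7% at 203 bases. Counted on both strands, overlapping matches included, GGGCGG occurs 0 times in the Sema5b window, 5 times in that of Sema5a and 3 times in that of Plxnb1. It occurs in 32.7% of all windows of 250 bases and in 25.2% of those of 203 bases. None of the 3 windows holds the TATA box TATAAA, which 12.4% of windows of 250 bases and 9.27% of those of 203 bases hold on either strand. The nuclear receptor half-site AGGTCA, searched on both strands, overlaps no match of the other motifs here. It is found in the Sema5a window, and in 14% of windows of 250 bases and 11.5% of those of 203 bases. These matches describe the letters only.

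No gene near Sema5b was called with it in limma. Sema5b lies on chromosome 16 (35541145 to 35664732 in GRCm38, the assembly of mm10, plus strand), and 16 other genes of the table lie within 500 kb of it. Of the 15 that were tested, 0 passed in limma or edgeR (background 1.37% and 1.43%) and 1 in DESeq2 (background 5.98%), and 1 had an unadjusted limma p under 0.05 (background 15.3%). The nearest protein-coding neighbours, the disulfide isomerase gene Pdia5 and the transporter gene Dirc2, stood at 850 ± 272 against 680.4 ± 121 and 505 ± 37.7 against 546 ± 81.2 (limma adjusted p = 0.635 and 0.789). The ADP-ribosyltransferase gene Parp14 had the smallest p, at 512 ± 71.9 in wild type and 349 ± 31.2 in the livers labelled Msr1-/- (limma adjusted p = 0.0577), opposite in sign to Sema5b. Its genotypes did not overlap, as in 7.29% of all tested genes. Parp14 passed in limma without wild type 3 (adjusted p = 0.0413) and in DESeq2 (adjusted p = 0.00257). The other tested neighbours were Gm5963, Dtx3l, Wdr5b, Ccdc58, Hacd2, Sec22a, Adcy5, Parp9, Gm15564, Fam162a, Hspbap1 and Kpna1, with limma adjusted p of 0.408 to 0.992. Gm5963 lies inside Sema5b on the minus strand (35573321 to 35573556), and since the labels state no strand setting for the counting, reads of the pair might not be told apart. It stood at 23.99 ± 7.84 and 15.5 ± 3.92.

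Among the genes whose pattern over the 9 livers was most like that of Sema5b were Bre (Pearson r = 0.983), Ube2h (0.969), Mansc4 (0.962) and Vnn3 (0.962). The 9 points share the genotype difference that chose Sema5b, so r is high for genes that separate the genotypes in the same direction, and these values are a description. Vnn3, a pantetheinase gene, went from 658 ± 104 to 1145 ± 137. With genotype means removed, the genes most alike included Eif4g3 (r = 0.933), Gpr162 (0.931), Caml (0.93) and Nlrp1b (0.93). These genes were picked for their high r among the tested genes, so their r is a description as well. For the genotype difference their limma adjusted p was 0.199 to 0.999. Among the 23 other tested members, those deviations had their highest r with Sema4g (0.563) and Sema6b (0.53) and their lowest with Sema3d (-0.829). These values are the ends of a ranking over 9 livers and were not tested.

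**Figure D4:**
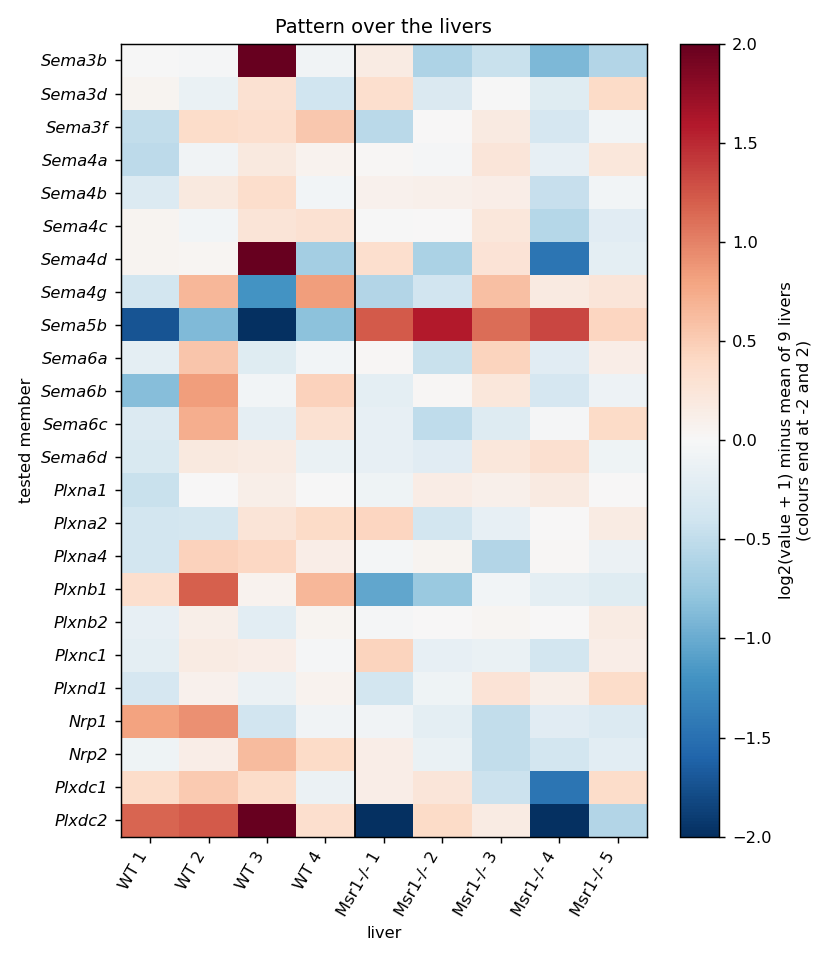
Pattern of the 24 tested members over the 9 livers, as log2(value + 1) minus the mean of the 9 livers, with colours ending at -2 and 2. Sema5b and, more faintly and in the opposite direction, Plxnb1 change colour at the line between genotypes. Wild type 3 stands out in Sema3b, Sema4d and Plxdc2.

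Among secreted class 3 semaphorins, none of the 3 tested members passed. Sema3b, a ligand of neuropilin and plexin A complexes, was 13.9, 13.7, 82.4 and 13.3 in wild type 1 to 4 and 15.9, 8.81, 10.04, 7.02 and 9.02 in the livers labelled Msr1-/- 1 to 5. Its wild-type mean of 30.8 ± 34.4 thus rests on wild type 3, and it was 13.6 ± 0.318 without it. The log2 difference was -1.07 (limma adjusted p = 0.37) with all livers and -0.44 (limma adjusted p = 0.47) without that liver. Sema3f, a ligand that acts through neuropilin-2, was 37.4, 68.6, 66.7 and 77.8 in wild type and 36.03, 52.8, 60.3, 42.1 and 51.1 in the livers labelled Msr1-/-. The ranges overlap and the log2 difference was -0.34 ± 0.24 (SE, limma adjusted p = 0.582). Sema3d lay between 19.9 and 35.1 in all 9 livers. Sema3a, Sema3c and Sema3g were not tested and reached at most 9.79, 14.1 and 7.84 in any liver.

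By the mean per kilobase of all 9 livers, the most abundant semaphorins, Sema4g and Sema4a, were of class 4, while Sema4f ranked last of the 33 members. None of the 5 tested members of that class differed between the genotypes past the threshold. Sema4g was 4483, 9078, 2517 and 10342 in wild type 1 to 4 and 3819, 4433, 8729, 6538 and 6801 in the livers labelled Msr1-/- 1 to 5. Within wild type it varied more than the genotypes differ, with wild type 3 lowest and wild type 4 highest, and the log2 difference was 0.02 ± 0.40 (SE, limma adjusted p = 0.989). Sema4a was 496, 679, 820 and 749 in wild type and 721, 705, 842, 640 and 837 in the livers labelled Msr1-/-. Its log2 difference was 0.14 ± 0.15 (SE, limma adjusted p = 0.751), and the ranges overlap. Sema4d, the ligand of plexin-B1 that is known from lymphocytes, was 8.55, 8.44, 43.1 and 4.74 in wild type and 10.6, 4.89, 10.04, 2.34 and 7.01 in the livers labelled Msr1-/-. All but wild type 3 lay under 11, and without that liver the mean over the livers fell below 10 and Sema4d was not tested. With all livers the limma adjusted p was 0.632. In bulk liver, fewer cells of a type and less RNA per cell cannot be told apart. Wild type 3 held the highest macrophage and stellate marker sums, as given above. Its lymphocyte marker sums were the lowest of the wild-type livers. They were 116.9 for T and NK cells (up to 236.3 in the others) and 578.2 for B and plasma cells (up to 971). The part of these lists in Sema4d, Sema3b and Plxdc2 was not tested. Sema4b (69.0 to 122) and Sema4c (23.4 to 43.6) overlapped between the genotypes, and Sema4f stayed at or below 3.17.

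The transmembrane class 6 semaphorins, ligands of A-type plexins, were all tested and none passed. Over the 9 livers, normalised counts ranged from 134 to 206 for Sema6d, 64.6 to 130 for Sema6a, 29.9 to 99.2 for Sema6b and 9.79 to 24.3 for Sema6c. Per kilobase, the means of Sema6d (15.8) and Sema6b (14.5) lay above those of Sema6a (10.3) and Sema6c (2.51), and the ranges of Sema6d, Sema6b and Sema6a overlapped from each to the next. Their log2 differences lay between -0.26 (Sema6c) and 0.03 (Sema6d), with limma adjusted p of 0.779 or more. The membrane-anchored Sema7a was not tested, with 4.71 as its highest value.

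Plxnb1, the receptor of Sema4d and a relative of Plxnb2, had the lowest p among the other members. It was 636, 1157, 533 and 801 in wild type 1 to 4 and 246, 301, 489, 442 and 429 in the livers labelled Msr1-/- 1 to 5. The highest value in the livers labelled Msr1-/- lay just below the lowest in wild type, that of wild type 3. The means were 782 ± 274 and 382 ± 103, a log2 difference of -1.02 ± 0.25 (SE) or 2.02-fold, and the limma adjusted p of 0.0774 did not pass. Over the 9 fits with 1 liver left out, the limma adjusted p ran from 0.019 without wild type 3 (log2 difference -1.18) to 0.184, and that fit was the one of the 9 that passed. DESeq2 called it (adjusted p = 0.00532) and edgeR did not (adjusted p = 0.0667).

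Plxnb2 did not show this difference. It was 1834, 2211, 1775 and 2134 in wild type and 2006, 2051, 2102, 2064 and 2305 in the livers labelled Msr1-/-, with a log2 difference of 0.09 ± 0.10 (SE, limma adjusted p = 0.781). Per kilobase, Plxnb1 stood at 27.9, 42.1, 24.2 and 30.2% of the level of Plxnb2 in wild type 1 to 4 and at 9.86, 11.8, 18.7, 17.2 and 15.0% in the livers labelled Msr1-/- 1 to 5. These ratios do not overlap, but they were formed after Plxnb1 was seen to be lower and were not tested. Plxnb3, the third B-type plexin, reached at most 6.42.

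A-type, C-type and D-type plexins stayed close to equal between the genotypes. Plxna2 (173 to 302 over the 9 livers) and Plxna1 (83.4 to 129) were the main A-type plexins, the receptors that pair with neuropilins. Plxna1 is also a receptor of class 5 semaphorins, and its log2 difference was 0.15 ± 0.15 (SE, limma adjusted p = 0.707). Plxna3, another receptor of that class, was under the mean needed for a test, at 0 to 8.01. Plxnc1, the receptor of Sema7a, ranged from 153 to 268. Plxnd1, an endothelial receptor for class 3 semaphorins, ranged from 247 to 406. The limma adjusted p of these genes was 0.707 or more. Plxna4 lay between 12.8 and 27.4 (log2 difference -0.30, limma adjusted p = 0.673), and its antisense gene Plxna4os1 between 2.34 and 21.97. The strand setting of the counting is not given in the sources used here, so reads of that pair may be mixed.

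Both neuropilins were lower on average in the livers labelled Msr1-/-, without passing the threshold. Nrp1, co-receptor of class 3 semaphorins and of VEGF, was 1323, 1419, 578 and 719 in wild type 1 to 4. It was 724, 663, 540 and 645 in Msr1-/- 1 to 4 and 627 in Msr1-/- 5. Wild type 1 and 2 were high, while wild type 3 and 4 lay within the range of the other genotype. The log2 difference was -0.56 ± 0.25 (SE, limma adjusted p = 0.311). Without wild type 3 it was -0.79 and passed (limma adjusted p = 0.0413), and in the other 8 such fits the adjusted p reached up to 0.521. Nrp2, the neuropilin of Sema3f, was 121, 139, 198 and 166 in wild type and 140, 115, 90.4, 99.4 and 110 in the livers labelled Msr1-/-. The groups overlap by the value of Msr1-/- 1, and the log2 difference was -0.48 ± 0.18 (SE, limma adjusted p = 0.226). No fit that left out 1 liver called it (limma adjusted p 0.165 to 0.405). In wild type 3 the 2 neuropilins departed in opposite ways, Nrp2 being highest and Nrp1 lowest of the wild-type livers. Per kilobase the Nrp1 to Nrp2 ratio was 13.3, 12.3, 3.54 and 5.24 in wild type 1 to 4, and it lay between 6.26 and 7.86 in the livers labelled Msr1-/-. The sum of 12 sinusoidal endothelial markers was 4924 to 5940 in wild type and 4848 to 6050 in the livers labelled Msr1-/-, with no marker called. Stellate cell and fibroblast markers were lower in the livers labelled Msr1-/- in 11 of 11 tested, with a median log2 difference of -0.55 and none called. Their sum was 4382 to 5159 in wild type without wild type 3, 11919 in that liver, and 4052 to 4708 in the livers labelled Msr1-/-. The part of these markers in the neuropilin values was not tested.

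Plxdc1 and Plxdc2 encode membrane proteins with a plexin-like domain, known as tumour endothelial marker 7 and its relative. Plxdc2 was 19.2, 20.0, 53.3 and 10.4 in wild type 1 to 4 and 1.06, 10.8, 9.13, 0 and 5.01 in the livers labelled Msr1-/- 1 to 5. Wild type 3 was highest, and wild type 4 fell just below Msr1-/- 2, so the genotypes overlap. The log2 difference was -2.40 ± 0.76 (SE, limma adjusted p = 0.154), while DESeq2 called it (adjusted p = 0.0386). The wild-type mean was 25.8 ± 18.9 with wild type 3 and 16.6 ± 5.33 when that liver was left out, where the mean over the livers was too low for a test. Plxdc1 was 15.0, 16.9, 14.9 and 10.4 in wild type and 12.7, 13.7, 8.22, 3.51 and 15.0 in the livers labelled Msr1-/- (limma adjusted p = 0.631), with overlapping ranges.

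Partners of the family were examined as a list of 68 genes, of which 57 were tested. In limma 1 was called higher and 0 were called lower, where the background was 0.665% and 0.703% of all tested genes. At an unadjusted p under 0.05 there were 3 higher and 7 lower, against a background of 15.3% in either direction. In edgeR and DESeq2, 1 was called in all, the same gene, where 1.43% and 5.98% of all tested genes were called. The median log2 difference was -0.02. Pcsk6, a proprotein convertase of the kind that processes secreted precursors, was 849, 781, 1219 and 912 in wild type 1 to 4 and 2041, 1737, 1621, 1462 and 1427 in the livers labelled Msr1-/- 1 to 5. The genotypes do not overlap, as in 7.29% of all tested genes. Pcsk6 rose 1.77-fold (log2 difference 0.83, limma adjusted p = 0.0307). Its call was kept without wild type 3 and lost on leaving out any other liver, with limma adjusted p from 0.00358 to 0.0878 over the 9 fits. Furin, the main convertase of class 3 semaphorins, stood at 1792 ± 281 against 2108 ± 164 (limma adjusted p = 0.389).

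The remaining partner groups had no called gene in limma, edgeR or DESeq2. Of 36 plexin effectors tested, 15 had a positive and 21 a negative log2 difference. The small GTPase gene Rras, whose product is switched off by plexins, had the smallest p among them, at 463 ± 40.8 against 348 ± 53.4 (limma adjusted p = 0.165). Its genotypes did not overlap, nor did those of Fyn and Farp1, also lower, and Arhgef12, which was higher. Genotypes did not overlap in 7.29% of all tested genes. Micall2, which encodes a protein of the MICAL-like group, stood at 36.7 ± 12.1 against 21.5 ± 3.498 (limma adjusted p = 0.223). Arhgef11, an exchange factor through which B-type plexins activate RhoA, stood at 121 ± 21.8 against 160.5 ± 19.7 (limma adjusted p = 0.229). Among 10 co-receptors and alternative receptors, Cd72, a Sema4d receptor of immune cells, stood at 62.6 ± 36.01 against 28.2 ± 9.18 (limma adjusted p = 0.228), its highest value of 114 being in wild type 3. The sum of macrophage markers, as given above, was lower in each liver labelled Msr1-/- than in each wild-type liver. So was the sum of 7 B and plasma cell markers, with 7 of 7 lower. It was 578 to 971 in wild type, lowest in wild type 3, and 212 to 388 in the livers labelled Msr1-/-. Cholangiocyte marker sums were apart in the same direction, at 620.3 to 1692.9 in wild type and 249.5 to 547.3 in the livers labelled Msr1-/-. Neutrophil marker sums were too, at 130 to 284 and 55.1 to 116.6. All tested macrophage, cholangiocyte and neutrophil markers were also lower. Of the tested markers, 1 of 7 was called for B and plasma cells, 1 of 13 for macrophages and 1 of 3 for cholangiocytes. For neutrophils it was 0 of 3, and limma called 1.37% of all tested genes. The part of any of these lists in Cd72, which B cells are known to express, was not tested. Met, a receptor tyrosine kinase that associates with plexin-B1, stood at 991 ± 218 against 1090 ± 46.6 (limma adjusted p = 0.664). Of the 4 VEGF family ligands tested, Vegfa was 2103, 3888, 858 and 2719 in wild type and 1583, 2162, 2846, 2366 and 2624 in the livers labelled Msr1-/- (limma adjusted p = 0.927), lowest in wild type 3 as Sema4g was.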

How the data were processed

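Per the labels' protocols, a TruSeq RNA kit was used on each of 9 livers, and the submitters' processing notes name STAR, HTSeq, DESeq2 and mm10 with no versions. The labels name no batch. The authors deposited a signal for each of 17442 genes in each liver, which is a read count over a size factor. Dividing by the smallest step gave whole reads for 100% of values within 0.01 reads. Reads set only the counting error, and the variation among animals limits the comparisons. No column was left without a labelled animal.

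Values were taken as log2(value + 1), which understates the change of low genes. Genes averaging 10 or more (12937) were fitted with limma 3.58.1 (R 4.3.3), using an intensity trend, genotype alone as term and Benjamini-Hochberg adjustment over all of them. Because the deposited signal is no raw count, the count tools edgeR 4.0.16 and DESeq2 1.42.0 ran on recovered reads as alternatives. Others were pseudocounts of 0.5 and 5, no filter, a minimum of 50, TMM scaling, a block for animal numbers, and fits leaving out single livers. Exon lengths and positions are from GENCODE M21 (GRCm38): 16917 genes were found by their symbol, 264 through a former symbol and 261 not at all. The limma step was tested on simulated counts. Named were Sema5b, Sema5a, the 8 other members of smallest p, the 4 of highest level per kilobase, called partners and the 4 of smallest p, tested genes within 500 kb of Sema5b, and its 5 most alike genes by 2 measures, passing over Gm, Rik and unnamed features. Some of these alike genes are not reported here. Furin, Met and Vegfa were named for their known role, after their values were seen. Members, lists, tests and rules were chosen with earlier results of these data known.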

Additional observations from a re-analysis of the deposited data

Results flagged for a closer look

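Values of each member, on the log2(value + 1) scale, and the Sema5b share of the semaphorin signal were examined within each genotype for a liver far from the rest, over 68 groups of 4 or 5 livers. Chance marks about 1 in 20 such groups, and 2 were found here. Sema3b was 82.4 in wild type 3, against 13.3 to 13.9 in the other wild-type livers. Plxna4 was 12.8 in Msr1-/- 3, against 18.0 to 20.6 in the other livers labelled Msr1-/-.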

How the results depend on the processing

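The log2 difference of Sema5b stayed between 2.28 and 2.75 over the fits with 1 liver left out, and the difference in its mean share of the semaphorin signal between 3.35 and 4.60 percentage points. The number of members past the threshold was 1 with all livers in limma, 3 in DESeq2, and between 1 and 3 with 1 liver left out, the highest without wild type 3. Each count includes Sema5b, which was chosen by its difference and says nothing here, so that 0 to 2 other members passed. The median log2 difference of the members was -0.14 with Sema5b included, lay between -0.24 and -0.06 with 1 liver left out, and was -0.001 over the 16 members with a mean of 50 or more. The number of partner genes called, 1 with all livers, was 0 to 1 with 1 liver left out, kept only without wild type 3. Among neighbours of Sema5b the count was 0 with all livers, 1 in DESeq2 and 0 to 1 with 1 liver left out, with a call without wild type 3 and without wild type 4. The sign of Sema4g, 0.02 with all livers, turned to -0.127 in edgeR and DESeq2 and to -0.033 with the animal number as a block. With 1 liver left out it ran from -0.369 to 0.31, turning to -0.092 without wild type 1, -0.369 without wild type 3, and -0.123, -0.019 and -0.033 without Msr1-/- 3, 4 and 5. Sema4a ran from -0.005, without wild type 1, to 0.236, and no other member named by the rule changed sign. The cause of these changes was not tested.

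With the animal number as a block over animals 1 to 4, limma called 10 genes, against 65 without the block on the same 8 livers. It called 0 of the other members in either fit and 0 partner genes, and the log2 difference of Sema5b, a description, was 2.73 in both. Deviations of same-numbered animals correlated at 0.025, -0.077, -0.102 and 0.218, so the numbers are not taken to pair the animals. Members with a mean below 10 were left out of the main fit by its filter, while the fit with no filter held all 33. A filter of 50 or more left out Plxdc1, Plxdc2, Sema3b and Sema4d among those named.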
